A study of Mus musculus with 4 samples.

Results

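p53, encoded by Trp53 in the mouse, and 9 of its well-established direct target genes were followed gene by gene in long-read RNA-sequencing counts. The 10 genes (Trp53, Cdkn1a, Mdm2, Ccng1, Bax, Aen, Zmat3, Phlda3, Sesn2 and Trp53inp1) were chosen by name, and all 10 were found by Ensembl identifier among the 16449 genes counted. The tissue was the dorsal and medial pallium of E11.5 mouse embryos, the forebrain wall that gives rise to the neocortex and hippocampus. Of the 4 libraries, 2 were wild type (WT) and 2 carried the label Tut1 knockout (KO). The study generated the KO by crossing Tut1 fl/fl mice with Emx1-Cre, which acts in neural stem and progenitor cells of this region before E11.5, and its sequencing statistics list the WT libraries as Tut1 fl/fl too, so that the groups share the floxed allele and differ in Cre. Blood cells, vessels and other cells without Emx1-Cre keep Tut1 in such embryos. Neither the labels nor the methods say whether the 2 libraries of a group came from separate embryos. The WT libraries differ in sex-linked transcripts and so hold different embryos, whereas for the KO-labelled pair the spread that the p-values measure may be technical. The comparison asks whether p53 and its targets differed in transcript abundance between these groups.

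p53 is a transcription factor that is kept scarce by rapid degradation and accumulates, largely at the level of the protein, after DNA damage and other forms of stress. It then binds a pair of adjoining decamers in DNA and activates genes that stop the cell cycle, repair damage, trigger apoptosis, and restrain p53 itself. In the embryonic brain, loss of the p53 inhibitor Mdm2 or damage to dividing progenitors is known to kill cells through p53.

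Cdkn1a and Ccng1 rose in the KO-labelled libraries, the first 3.65-fold and the other 5.67-fold. Bax, Zmat3, Aen, Mdm2 and Trp53 had fitted fold changes from 1.37 to 2.62 and were not past the threshold, an adjusted p of 0.05 in the edgeR quasi-likelihood test with Benjamini-Hochberg adjustment over 5878 genes. Phlda3, Sesn2 and Trp53inp1 had too few counts to be tested. Thus 2 of the 10 genes, 7 of them tested, were called, both higher, beside 2.06% of all tested genes called in either direction and 1.40% called higher. The 10 genes were chosen with earlier results of these data known, so that this contrast is a description and not an independent test. In all 7 that were tested, both KO-labelled libraries lay above both WT libraries, an order that 22.1% of all tested genes showed. Ccng1 and Zmat3 reached the count filter through the KO-labelled libraries alone and Cdkn1a with only 1 WT library, so that a rise was partly built into their being tested. Trp53, Mdm2, Bax and Aen reached it in all 4 libraries.

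The match of the promoters to the consensus decamer of p53, its binding unit, is shown first, since p53 acts through this sequence. RefSeq promoter windows of 300 bases, from 250 bases before to 50 after an annotated start, were at hand for 8 of the 10 genes, and Zmat3 and Trp53inp1 had none. An exact decamer was present on either strand in 6 of the 8 (75.0%), against 9.6% of 27025 genes with a window. The genes were chosen as direct targets of p53, so that an excess of its sequence was partly built in. Their windows also had a higher median share of G and C bases, 60.6% against 52.7% for all windows. With 1 mismatch allowed, the same share of 75.0% stood beside 73.0% of all genes, so that the looser form does not set the members apart. A pair of adjoining decamers with at most 2 mismatches over both was present for Cdkn1a and Ccng1, 25.0% of the 8 and 0.9% of all genes. The search for pairs was added after the data were seen. That its 2 genes are also those called higher is therefore a description and lends the calls no support. The stretches below are from GRCm38.p6, read on the strand of the gene, with the whole of each decamer or pair in capitals, any mismatched base included. The first pair are those with adjoining decamers, each with 1 mismatch over both. Cdkn1a has a further exact decamer upstream of its pair, also in capitals, and the others hold a single exact decamer.
Cdkn1a, chr17:29090903-29090972, plus strand: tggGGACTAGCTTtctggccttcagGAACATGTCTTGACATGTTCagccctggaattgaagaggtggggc
Ccng1, chr11:40755442-40755501, minus strand: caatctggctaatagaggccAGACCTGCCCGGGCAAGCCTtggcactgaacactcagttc
Mdm2, chr10:117710920-117710959, minus strand: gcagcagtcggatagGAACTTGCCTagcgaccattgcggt
Bax, chr7:45467075-45467114, minus strand: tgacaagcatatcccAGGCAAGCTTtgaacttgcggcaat
Trp53, chr11:69580269-69580308, plus strand: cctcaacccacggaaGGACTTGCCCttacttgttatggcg
Aen, chr7:78895927-78895956, plus strand: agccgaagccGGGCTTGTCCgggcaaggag

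The pair of Cdkn1a begins 51 bases before its nearer RefSeq start and 2841 before the other, and its further decamer 73 before the nearer start. The capitals begin 195 bases before the start of Ccng1, 186 before that of Mdm2, 201 before that of Bax and 75 before that of Trp53. Those of Aen begin 10 bases after the first of its starts and 121 before the other, within an annotated untranslated exon. The stretch of Bax lies inside Gm45808, which is annotated on the same strand, and the stretches of Cdkn1a, Ccng1, Mdm2 and Trp53 lie in no annotated gene. The windows of Phlda3 and Sesn2 did not hold these letters, which says nothing of sites elsewhere in those genes. Each match is a description of the reference sequence. Binding of p53 was not measured here.

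The libraries were shallow, with total counts from 305642 to 397150 and a median of 19 to 25 counts per tested gene. Tut1 itself (ENSMUSG00000071645; GRCm38 chromosome 19, 8953847 to 8966210, plus strand) was counted 6 and 11 times in WT but 29 and 25 times under the KO label, with an edgeR adjusted p of 0.0113 for a log2 difference of 1.71 ± 0.40 (SE). Its level thus goes against the label, and leaving out WT replicate 1, KO replicate 1 or KO replicate 2 ended the call (adjusted p = 0.133, 0.2 and 0.16) with log2 differences of 1.39, 1.80 and 1.63, as did DESeq2 (1.74, adjusted p = 0.44). Cre removes only exon 2, which a count over the gene cannot show, so every direction here follows the labels. Xist had 64 counts in WT replicate 1 and 0 in the other 3 libraries, and Y-linked genes showed the reverse, so that sex differs between the WT libraries. Dorsal telencephalon markers were present throughout (7 of 7 genes listed, with a summed level of 1433 to 1830 CPM, counts scaled to TMM-adjusted library size, in WT and 933.0 to 1080 CPM in the KO-labelled libraries, where Lhx2 fell). Summed markers of other cells also differed. The 9 microglia markers summed to 106.0 and 109.0 CPM in WT and to 351.0 and 404.0 CPM in the KO-labelled libraries, with all 4 that were tested called higher and C1qa and Trem2 at 0 counts in both WT libraries. The 11 neuron markers summed to 1559 to 1581 CPM in WT and 2331 to 2503 CPM in the KO-labelled libraries, with 2 of 10 tested called (Dcx and Mapt, higher) and Reln at 0 in WT. Neural progenitor markers summed to 1018 to 1070 CPM and 986.0 to 1011 CPM, with 0 of 6 tested called. Endothelial markers ranged over 96.9 to 106.0 CPM in WT and 170.0 to 181.0 CPM in the others (0 of 2 tested called), mesenchymal markers over 103.0 to 265.0 and 320.0 to 468.0 CPM (1 of 4, Col1a2, higher), and red cell markers over 1324 to 1740 and 1434 to 2137 CPM (1 of 5, Hbb-bh1, lower). Ventral telencephalon markers reached 0 and 50.3 CPM in WT and 90.3 and 144.0 CPM in the KO-labelled libraries (1 of 2, Dlx1, higher), with Dlx2 and Dlx5 at 0 in WT. Over the whole table, edgeR called 121 genes, but 3 without KO replicate 1. The part of these markers in the results below was not tested.

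**Figure D1:**
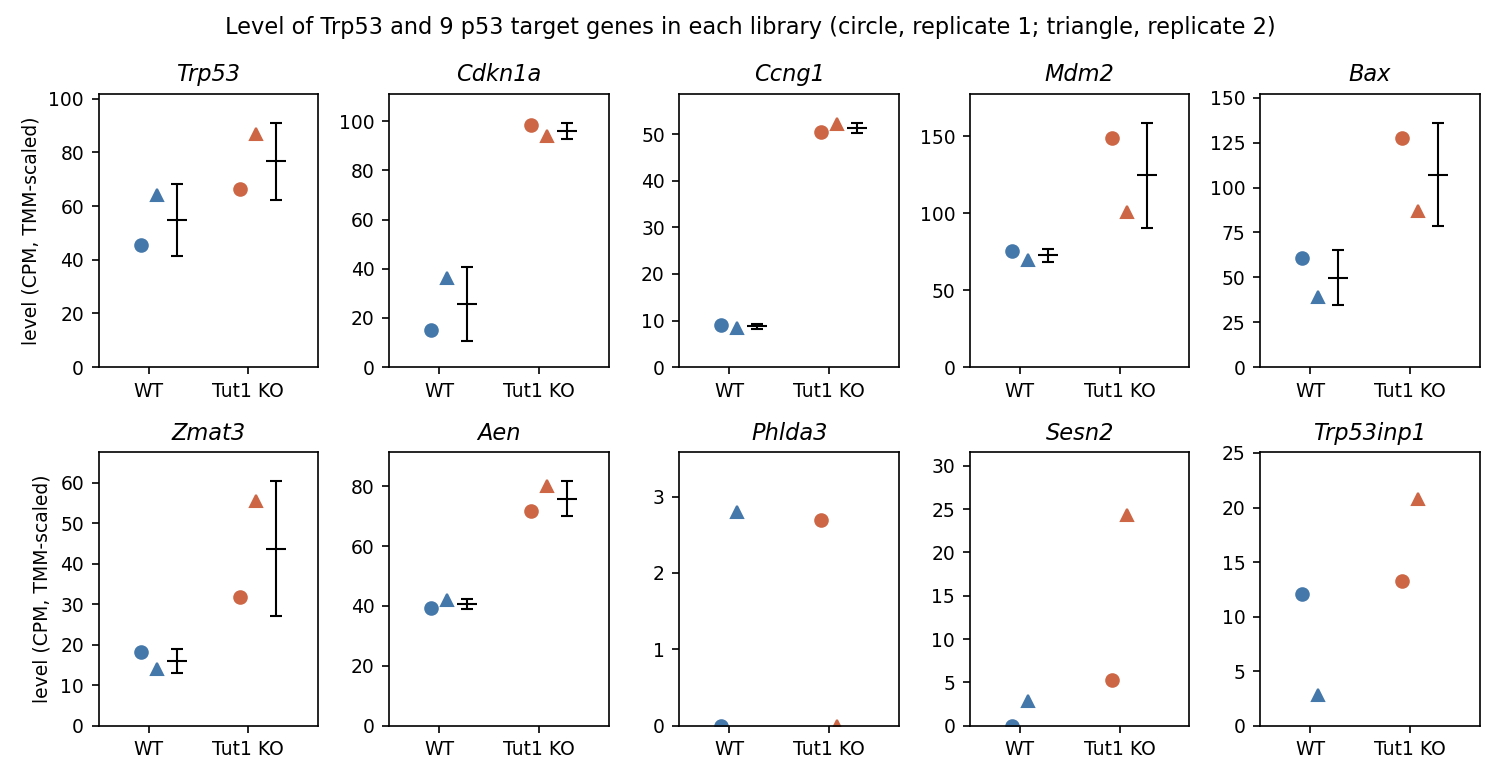
Level in CPM (vertical axis of each panel, starting at 0) of Trp53 and 9 p53 target genes in each library, with WT in blue and the KO-labelled libraries in orange, circles for replicate 1 and triangles for replicate 2, and mean ± SD (n = 2) as black bars for the 7 tested genes. In these 7 panels both orange points lie above both blue points, with the widest gap in proportion for Ccng1, at 8.4 and 9.1 CPM in WT and 50.5 and 52.1 CPM in the KO-labelled libraries.

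Trp53 (ENSMUSG00000059552; GRCm38 chromosome 11, 69580359 to 69591873, plus strand) was first examined at the level of its own transcript. WT replicates 1 and 2 held 15 and 23 of its counts and KO-labelled replicates 1 and 2 held 25 each, which corresponds to 45.4 and 64.2 CPM and to 66.4 and 86.8 CPM. The groups did not overlap, but WT replicate 2 lay almost at the level of KO replicate 1. Means were 54.8 ± 13.3 CPM for WT and 76.6 ± 14.4 CPM under the KO label (SD, n = 2 each). The log2 fold change was 0.45 ± 0.35 (SE), with a 95% interval from -0.25 to 1.15, or 0.843- to 2.23-fold, and an adjusted p of 0.618 (edgeR). A difference in Trp53 transcript was therefore not detectable at this depth, while a rise of more than 2.23-fold lies outside the interval. The value moved with single libraries, to 0.22 without WT replicate 1, 0.27 without KO replicate 2, 0.65 without KO replicate 1 and 0.72 without WT replicate 2. The level of p53 protein was not measured in these libraries.

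The arrest arm is represented by Cdkn1a (ENSMUSG00000023067; chromosome 17, 29090976 to 29100727, plus strand), which encodes p21, an inhibitor of cyclin-dependent kinases and the classic effector of p53-dependent arrest at the G1/S step. WT held 5 and 13 counts against 37 and 27 under the KO label, or 15.1 and 36.3 CPM against 98.3 and 93.8 CPM. Both KO-labelled libraries were high and close to each other, whereas the WT libraries were low and further apart. From 25.7 ± 15.0 CPM, Cdkn1a rose to 96.1 ± 3.2 CPM (SD, n = 2 each), which is 1.87 ± 0.39 (SE) on the log2 scale (95% interval 1.07 to 2.66, or 2.1- to 6.33-fold; edgeR adjusted p = 0.0047). It stood at rank 33 of the 5878 genes, both by p-value and by size of rise. The call depended on both KO-labelled libraries and on WT replicate 1: without KO replicate 1, KO replicate 2 or WT replicate 1 the edgeR adjusted p was 0.2, 0.086 and 0.0819, with log2 fold changes of 1.83, 1.90 and 1.39, and without WT replicate 2 it was 0.000564 at 2.63. DESeq2 did not call the gene (log2 fold change 1.89, adjusted p = 0.259). An annotated gene on the opposite strand, AC167363.2, overlaps Cdkn1a, and whether the counting used strand is not stated. In bulk tissue, a different number of cells of a type and a different amount of RNA per cell cannot be told apart, here and for each gene that follows.

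The feedback arm holds Mdm2, the ubiquitin ligase that targets p53 for degradation, and Ccng1, which encodes cyclin G1, a protein that recruits a phosphatase to Mdm2. Ccng1 (ENSMUSG00000020326; chromosome 11, 40748552 to 40755311, minus strand) was counted 3 times in each WT library and 19 and 15 times under the KO label, or 9.1 and 8.4 CPM against 50.5 and 52.1 CPM. The groups were far apart and the libraries within each were nearly level, although the WT value rests on 3 counts per library. From 8.7 ± 0.5 CPM, Ccng1 rose to 51.3 ± 1.1 CPM (SD, n = 2 each), which is 2.50 ± 0.56 on the log2 scale (95% interval 1.38 to 3.63; edgeR adjusted p = 0.00728). The ratio of the pooled counts, 34 against 6 scaled to library size, was 5.87, with an exact interval of 2.44 to 17.1 that covers counting error only. By size of rise it was rank 10 of all tested genes, and by p-value rank 48. The edgeR adjusted p was 0.266 without KO replicate 1 and 0.156 without KO replicate 2, at log2 fold changes of 2.53 and 2.49, and limma-voom gave 0.145 at 2.37. DESeq2 gave no adjusted p with its independent filter and 0.514 without it, at 2.55. Without WT replicate 1 the log2 fold change was 2.55, and without WT replicate 2 it was 2.44. Those fits take their spread within a group from the KO-labelled pair alone, which may be technical. Ccng1 also reached the count filter only through the KO-labelled libraries.

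Mdm2 (ENSMUSG00000020184; chromosome 10, 117688875 to 117710758, minus strand) was counted 25 times in each WT library, 56 times in KO replicate 1 and 29 times in KO replicate 2. These counts stand for 75.7, 69.8, 148.8 and 100.7 CPM in that order of libraries. The WT libraries were level with each other and KO replicate 1 was the highest of the 4. The log2 fold change was 0.80 ± 0.29 (95% interval 0.21 to 1.39, or 1.16- to 2.63-fold; unadjusted p = 0.00936, edgeR adjusted p = 0.16), which was not past the threshold. Without KO replicate 1 it was 0.47. Within each library, where scaling cancels, there were 0.81 and 0.86 counts of Mdm2 per count of Mdm4, its close relative that also binds p53, in WT, and 1.60 and 1.53 in the KO-labelled libraries. Per count of Trp53, the ratio was 1.67 and 1.09 in WT and 2.24 and 1.16 in the KO-labelled libraries, so that here the groups overlapped.

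The apoptotic arm holds Bax, a pore-forming BCL-2 protein of the mitochondrial outer membrane, and Aen, a nuclease that takes part in DNA breakdown in dying cells. Bax (ENSMUSG00000003873; chromosome 7, 45461697 to 45466898, minus strand) had 20 and 14 WT counts against 48 and 25, or 60.6 and 39.1 CPM against 127.6 and 86.8 CPM. The groups did not overlap, and KO replicate 1 was again the highest. Bax had means of 49.8 ± 15.2 and 107.2 ± 28.8 CPM (SD, n = 2 each) and a log2 fold change of 1.13 ± 0.33 (95% interval 0.46 to 1.81, or 1.38- to 3.5-fold; unadjusted p = 0.00151), and its edgeR adjusted p of 0.0602 lay just outside the threshold. It came past the threshold when libraries were scaled by total counts (adjusted p = 0.04997), when genes needed 10 counts in 2 libraries (0.0468), and without WT replicate 1 (0.0435, at a log2 fold change of 1.46). Without KO replicate 1 its log2 fold change was 0.81. Per count of Bcl2, an inhibitor of Bax, there were 1.18 and 0.64 counts of Bax in WT and 2.09 and 0.89 in the KO-labelled libraries, and per count of Bcl2l1, another inhibitor, 0.80 and 0.32 against 2.18 and 0.86, so that the groups overlapped in the first ratio and lay close in the other. Gm45808 overlaps Bax on the same strand, and reads of the 2 genes could be exchanged.

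Aen (ENSMUSG00000030609; chromosome 7, 78895854 to 78911209, plus strand) had 13 and 15 WT counts against 27 and 23 under the KO label. Its WT levels of 39.4 and 41.9 CPM stand beside 71.8 and 79.9 CPM. The replicates of each group were close and the groups did not overlap. The log2 fold change was 0.88 ± 0.36 (95% interval 0.15 to 1.62; unadjusted p = 0.0193, edgeR adjusted p = 0.231) and was not past the threshold.

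Of the other targets, Zmat3 encodes an RNA-binding zinc finger protein that regulates splicing and acts as a tumour suppressor downstream of p53. Zmat3 (ENSMUSG00000027663; chromosome 3, 32334792 to 32366014, minus strand) had 6 and 5 WT counts against 12 and 16, or 18.2 and 14.0 CPM against 31.9 and 55.6 CPM. The WT libraries were low and close, the KO-labelled libraries were higher and spread apart, with KO replicate 2 the highest. The log2 fold change was 1.39 ± 0.52 (95% interval 0.33 to 2.44; unadjusted p = 0.0114, edgeR adjusted p = 0.174).

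Phlda3, Sesn2 and Trp53inp1 did not reach the count filter in any library. Phlda3 (ENSMUSG00000041801; chromosome 1, 135766119 to 135769136, plus strand), which encodes an inhibitor of AKT signalling, was counted once in WT replicate 2, once in KO replicate 1 and in neither other library. Both groups lie under the floor of 3 counts, 7.97 to 10.42 CPM depending on the library, so no fold is given. Sesn2 (ENSMUSG00000028893; chromosome 4, 132492032 to 132510501, minus strand) encodes a stress-induced sestrin that restrains mTORC1. It was found with 0 and 1 WT counts against 2 and 7 under the KO label. Most of its counts came from KO replicate 2. The ratio of its pooled counts was 9.32, with an exact interval from 1.29 to 409.0 for counting error only, and without the filter its edgeR adjusted p was 0.358. Both WT libraries and KO replicate 1 lay under the floor of 3 counts, so that the size of this ratio cannot be relied on. Gm12981 overlaps Sesn2 on the same strand. Trp53inp1 (ENSMUSG00000028211; chromosome 4, 11156431 to 11174379, plus strand), whose protein cooperates with p53 in stress responses and autophagy, had 4 and 1 WT counts against 5 and 6. Its KO-labelled libraries lay just above the higher WT library, with a pooled ratio of 2.28 (0.73 to 8.37) and an edgeR adjusted p without the filter of 0.807. At this depth neither gene could be placed as higher or level.

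**Figure D2:**
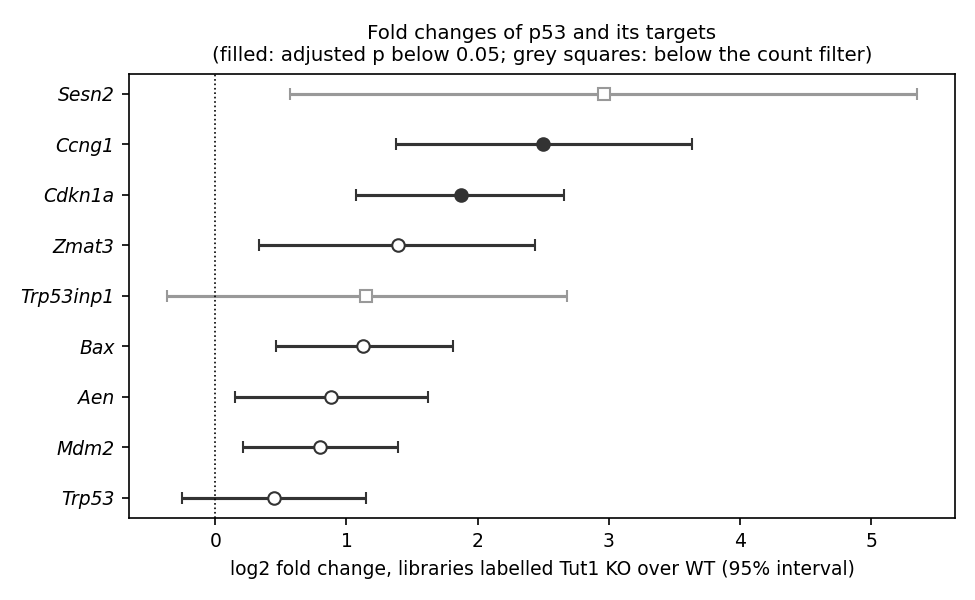
Log2 fold change of the KO-labelled libraries over WT (horizontal axis, 95% interval as bars) for Trp53 and 8 of its targets in order of size, with filled points for an adjusted p below 0.05 and grey squares for the 2 genes below the count filter, fitted without it. The filled points are Ccng1 at 2.50 and Cdkn1a at 1.87, and the interval of Trp53 reaches from -0.25 to 1.15.

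Added up over the 9 targets, the WT libraries held 76 and 78 counts and those labelled KO 207 and 148. On the CPM scale the WT sums were 230.2 and 217.9 and the others 550.1 and 514.0. The sums were level within each group and 2.37 times as high in the KO-labelled libraries, at 532.0 ± 25.5 against 224.0 ± 8.7 CPM (SD, n = 2 each), and 2.48 times as high when scaled by total counts. As a sum over genes chosen by name with earlier results known it was given no test. Shares of the sum are relative, so that a smaller share can go with a higher level. Mdm2 supplied 32.9% and 32.1% of the summed counts in WT and 27.1% and 19.6% in the KO-labelled libraries. Ccng1 supplied 3.95% and 3.85% against 9.18% and 10.1%, and Cdkn1a 6.58% and 16.7% against 17.9% and 18.2%, where WT replicate 2 lay close to the KO-labelled libraries. The share of Bax overlapped between the groups, at 26.3% and 17.9% against 23.2% and 16.9%.

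The rest of the pathway was described with lists fixed by name. Of 38 other p53 targets, 35 were in the table and only 7 had enough counts to be tested. None was called (0 in edgeR, and 0 in DESeq2 and in limma-voom), with 0 at an unadjusted p below 0.05, beside 14.2% of all tested genes in either direction. Their median log2 fold change was 0.17, with a range from -0.92 to 0.54, beside a median of -0.01 over all tested genes. The median of these targets was 0.57 without the filter and -0.03 without WT replicate 2, so that its sign rested on that library. The smallest p-values belonged to Psrc1, which encodes a spindle protein (118.1 and 100.6 CPM against 167.4 and 135.5 CPM; log2 fold change 0.48, edgeR adjusted p = 0.421), Fbxw7, a subunit of a ubiquitin ligase (-0.92, adjusted p = 0.48), and Gtse1, a p53-binding microtubule protein (0.54, adjusted p = 0.656).

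Over all 35 of these genes in the table, the summed level was 757.3 and 782.1 CPM in WT and 999.2 and 837.0 CPM in the KO-labelled libraries, a ratio of 1.19. Without Ei24, the one gene left out after its values were seen, the sums were 478.6 and 480.4 against 648.4 and 646.0 CPM, a ratio of 1.35. The 28 below the filter had 0 to 18 counts each. Their summed level was 178.7 and 181.6 CPM in WT and 310.9 and 281.3 CPM in the KO-labelled libraries, a ratio of 1.64, where all 10571 genes below the filter gave 1.09. In 9 of the 28 (32.1%) both KO-labelled libraries lay above both WT libraries in CPM and in 3 below, while 16.2% of genes below the filter with a count lay above and 13.1% below. At such counts library size alone can set the order, as for Tnfrsf10b, with 1 and 0 WT counts against 3 and 1, and Cd82, with 1 and 1 against 1 and 0. Among those 9, singled out after their values were seen, Ak1, an adenylate kinase, had 4 and 2 WT counts against 15 and 6, and Polk, a translesion DNA polymerase, had 0 and 1 against 6 and 5. Bbc3, which encodes the pro-apoptotic protein PUMA and was likewise picked afterwards, had 0 and 1 WT counts against 1 and 5, so that the groups met at 1 count. These genes were too sparse for a test of their own.

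**Figure D3:**
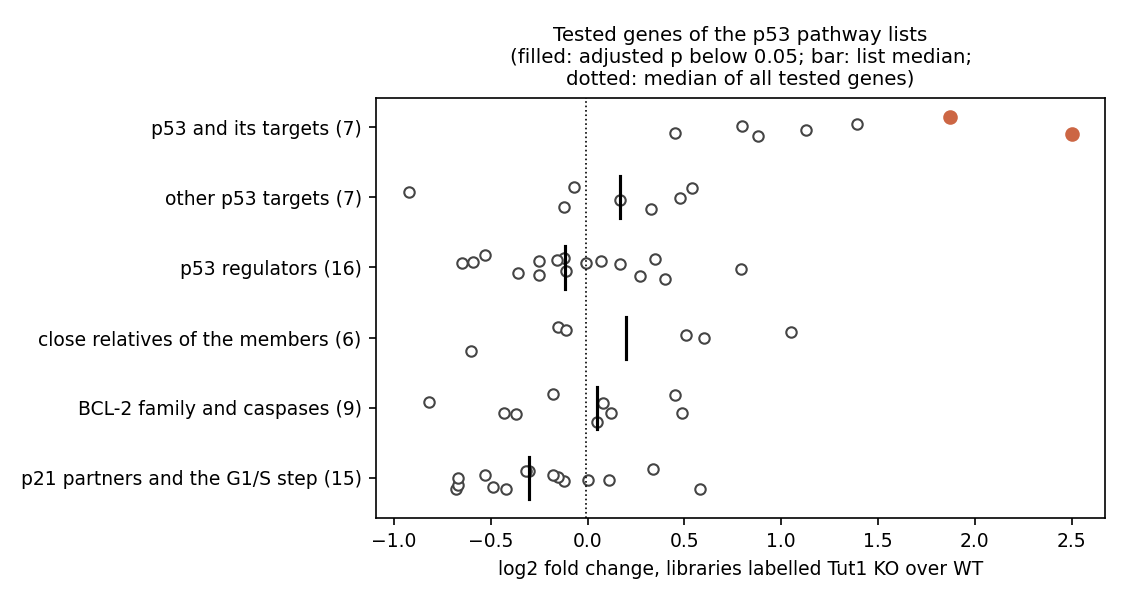
Log2 fold change of the KO-labelled libraries over WT (horizontal axis) for each tested gene of 6 lists, with the number tested in brackets, filled points for an adjusted p below 0.05, black bars for the medians of the 5 other lists and a dotted line at the median of all tested genes, -0.01. Filled points occur only in the top line, at 1.87 (Cdkn1a) and 2.50 (Ccng1), and the 5 other lists range from -0.92 to 1.05.

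Regulators of p53 were next compared. Of 27 listed genes, among them kinases, acetyltransferases, enzymes of ubiquitination, p53-binding proteins and ribosomal proteins, 16 were tested and 0 called, with 1 at an unadjusted p below 0.05 (14.2% of all tested genes), lower, and a median of -0.12 that ranged from -0.14 to -0.05 when each library was left out. That gene was Chek1, a checkpoint kinase (187.8 and 111.7 CPM in WT against 103.6 and 83.4 CPM; log2 fold change -0.65, edgeR adjusted p = 0.256). Topors, a ligase for ubiquitin and SUMO, had 0.79 (adjusted p = 0.501), and Rpl5, a ribosomal protein that can bind Mdm2, had -0.25 (adjusted p = 0.543). Of 20 close relatives of the members, 6 were tested and 0 called. Their median of 0.20 was 0.50 without the filter, 0.07 without WT replicate 2 and 0.08 without KO replicate 1. The only one at an unadjusted p below 0.05, beside the same 14.2%, was Trp53inp2, the paralogue of Trp53inp1 (18.2 and 30.7 CPM against 39.9 and 66.0 CPM; log2 fold change 1.05, edgeR adjusted p = 0.249). Cdkn1c, which encodes the p57 inhibitor, had 0.51 (adjusted p = 0.365) and Ccni, a cyclin, 0.60 (adjusted p = 0.527). Counts of Cdkn1a per count of Cdkn1b, which encodes the p27 inhibitor, reached 0.26 and 0.68 for WT but 2.31 and 1.59 under the KO label.

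Downstream of the 2 arms, 9 of 25 genes of the apoptotic machinery (BCL-2 family members and caspases, with others such as cytochrome c and caspase inhibitors) were tested, 0 were called and the median was 0.05, or -0.07 without WT replicate 1. Bcl2l11, which encodes the pro-apoptotic protein BIM, had 54.5 and 78.2 CPM in WT and 34.5 and 41.7 CPM in the KO-labelled libraries, with -0.82 on the log2 scale (edgeR adjusted p = 0.315), and was the only one at an unadjusted p below 0.05. Birc5, which encodes survivin, had -0.43 (adjusted p = 0.527) and Bcl2 0.45 (adjusted p = 0.623). Of 25 partners of p21 and genes of the G1/S step, 15 were tested and 0 called, with a median of -0.30 (-0.20 without WT replicate 1) and 12 of 15 below 0, as were 51.6% of all tested genes. Ccnd1, which encodes cyclin D1, had 112.1 and 170.4 CPM in WT and 209.9 and 215.3 CPM in the KO-labelled libraries (log2 fold change 0.58, edgeR adjusted p = 0.241). Cdk1, the mitotic kinase, had 81.8 and 92.2 CPM against 55.8 and 52.1 CPM (-0.68, adjusted p = 0.335), and Rbbp4, a chaperone of histones, had -0.32 (adjusted p = 0.332). These were the 3 of that list (of 15 tested) at an unadjusted p below 0.05, beside 14.2% of all tested genes, and were named by that rank alone. In DESeq2 and limma-voom, 0 genes of these 4 lists were called as well.

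The pattern of Cdkn1a over the 4 libraries was close to that of Fam13c, Tyrobp, Col1a2 and Scn2a, by Euclidean distance of centred log2 CPM (0.15, 0.26, 0.26 and 0.36). Tyrobp and Col1a2 are on the microglia and mesenchyme lists. Among the p53 targets the nearest was Ccng1, at 0.79 and rank 59 of 5877 genes, and the farthest of those tested was Bax, at 1.38. Close to Trp53 were Ubp1, Ptprs, Ttc5 and Upf2, at 0.03 to 0.08, and the nearest target was Aen, at 0.47 and rank 777. With 4 libraries, these distances describe and do not test.

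**Figure D4:**
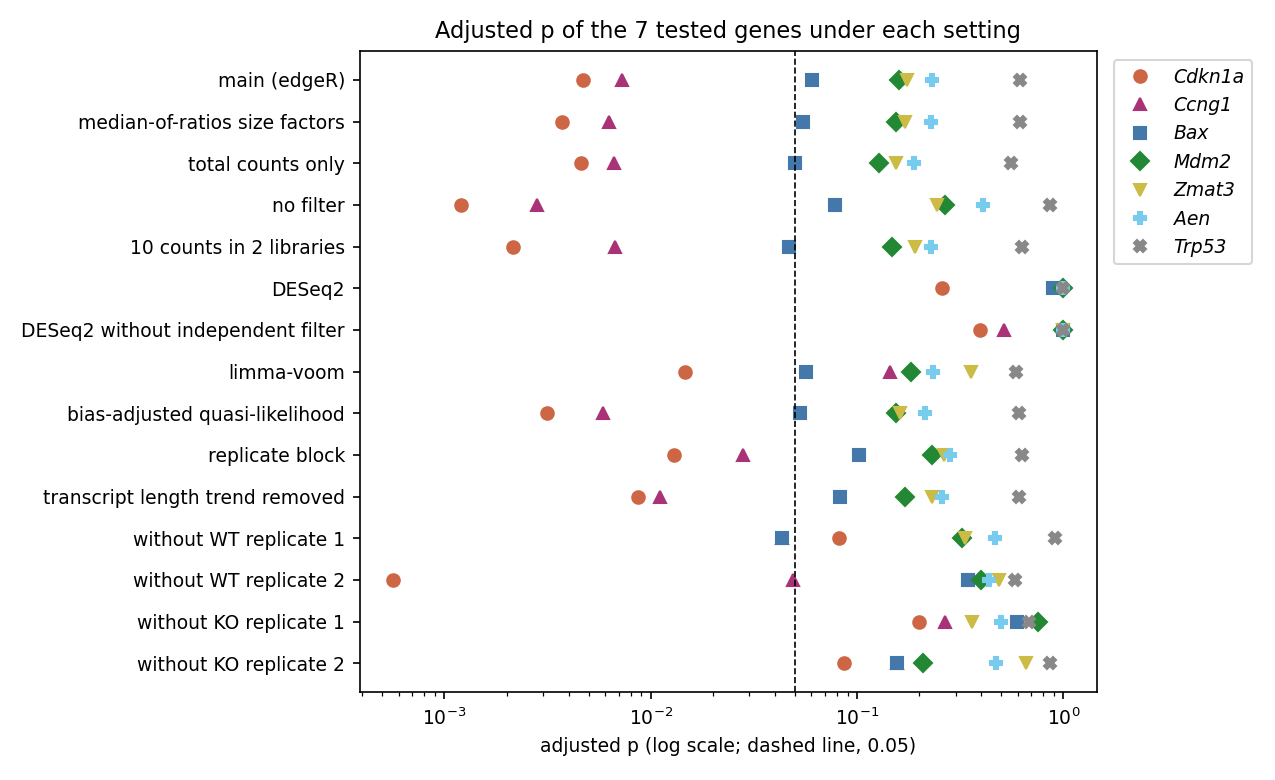
Adjusted p (horizontal log axis, dashed line at 0.05) of the 7 tested genes under each way of processing the counts (vertical axis). Cdkn1a and Ccng1 lie left of the line except in DESeq2 (where Ccng1 has a value only without the independent filter), without either KO-labelled library and, for Cdkn1a, without WT replicate 1 or, for Ccng1, in limma-voom, Bax lies left of it in 3 settings, and Trp53, Mdm2, Zmat3 and Aen lie right of it in every setting where they have a value.

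The plot of adjusted p by setting shows how firmly each call stands. DESeq2 called 0 of the 10 genes with and without its independent filter, where it called 0.162% and 0.119% of its genes higher, and limma-voom called 1 (Cdkn1a) beside 1.29%. Without KO replicate 1 or KO replicate 2, edgeR called 0 of them beside 0.0510% and 0.476%. Cdkn1a was past the threshold in 9 of 14 alternatives and Ccng1 in 9 of the 13 that gave it a value. Bax came past it in 3 of 14. Trp53, Mdm2 and Aen were past it in 0 of 14 and Zmat3 in 0 of 13, and the fitted log2 fold change of each of the 7 genes was above 0 throughout. The smallest p that an exact two-sided permutation of 2 against 2 libraries can give is 0.333, so the calls lean on the spread shared between genes.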

How the data were processed

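The authors deposited raw read counts per gene from Nanopore sequencing of poly(A)-enriched RNA. Per the labels and methods, they used minimap2 with the Ensembl transcriptome (GRCm38) and FLAIR. Isoform summing, multi-mapping reads and strand are not stated. Groups and replicate numbers came from the sample labels (2 WT and 2 KO). GENCODE M21 matched 16436 of 16449 identifiers and left 13 unmatched.

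Counts were compared in edgeR 4.0.16 (R 4.3.3) with TMM, filterByExpr (minimum count 10, minimum total 15) and the two-sided quasi-likelihood test without covariates. The study called differential expression in these libraries with FLAIR by a fold and false discovery rate threshold, which was not rerun here. Standard errors are the log2 fold change over the root of F. Benjamini-Hochberg adjustment covered 5878 genes. The biological coefficient of variation was 10.5%, with 2 residual and 37.5 prior degrees of freedom. Log2 CPM used a prior count of 2. Alternatives were other size factors, filters, DESeq2 1.42.0, limma-voom 3.58.1, bias-adjusted quasi-likelihood, a transcript length trend removed by loess (span 0.5), a replicate block and leaving out each library. With a library left out, the remaining one of its group is taken to vary like the other group. DESeq2 without its independent filter and the paired decamer were added after seeing the data. The procedure was tested on simulated data.

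All 10 members and Tut1 were named. From each other list the 3 tested genes of smallest p and any called gene were named, and for Cdkn1a and Trp53 the 5 nearest profiles, not all of which are reported here. Members and lists were chosen with earlier results of these data known. Intervals of pooled counts and floors cover counting error only. Promoter windows were from RefSeq (GRCm38.p6).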

Additional observations from a re-analysis of the deposited data

How the results depend on the processing

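Trp53, Mdm2, Aen and Zmat3 stayed on the same side of the threshold in every alternative that gave a value. No fold change of the 7 tested genes changed direction. DESeq2 lost Cdkn1a, at a log2 fold change of 1.89 with and without its independent filter (adjusted p = 0.259 and 0.393). It gave Ccng1 no adjusted p with that filter and 0.514 without it, at 2.55, and limma-voom lost Ccng1 at 2.37. Thus 0 members were called by DESeq2 in either form and 1 by limma-voom. Bax came past the threshold with total counts (1.20) and with 10 counts in 2 libraries (1.13). Leaving out each library gave log2 fold changes of 1.39 to 2.63 for Cdkn1a, 2.44 to 2.55 for Ccng1 and 0.81 to 1.46 for Bax, and 0 to 2 members called. Members with a match were 6 both with 1 mismatch allowed in the decamer and with none. They were 2 under a setting that required an adjoining pair and allowed at most 2 mismatches over both.

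Over all tested genes, 82 were called higher and 39 lower. DESeq2 called 6 and 2, and without its independent filter 7 and 2. Leaving out each library gave 3 to 79 higher and 0 to 29 lower, the fewest without KO replicate 1. With total counts 24 were lower, and 81.4% of calls were higher in place of 67.8%, as the median of all genes shifted to 0.05. With the replicate number as a block, 51 were higher and 25 lower, and Cdkn1a (1.90, adjusted p = 0.0129) and Ccng1 (2.51, adjusted p = 0.028) were still called. Same-numbered libraries did not deviate together (r = -0.061 across genes, 2 pairs). Counting error at few counts per gene pulls this r toward 0, and WT replicate 1 differs in sex from the other libraries. It therefore cannot show whether same-numbered libraries were paired by litter or batch. Where no reason is given, the cause of a change was not tested. Few counts per gene limit what could be detected.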
